A study of Homo sapiens with 14 samples.

Results

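The regions described here were 9049 sites where chromatin immunoprecipitation sequencing (ChIP-seq) listed the progesterone receptor (PR) and POLR3A together after progesterone (P4), and neither of them after vehicle. POLR3A is the largest subunit of RNA polymerase III. A site was taken when a PR region of the P4 list, on chromosomes 1 to 22 and X, shared at least 1 bp with a POLR3A region of the P4 list and no base with a vehicle region of either antibody. The 9049 sites were 8.11% of the 111515 PR regions under P4. The sites were chosen by the presence and absence of regions in the 4 lists, so the gain of PR and POLR3A is the rule and not a finding, and "gained" means only listed under P4 and not under vehicle. By the parts of the rule, 74.2% of all PR regions under P4 touched no vehicle PR region, 86.4% touched no vehicle POLR3A region and 20.9% touched a POLR3A region of the P4 list.

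The cells were T47D, an established breast cancer line that expresses the oestrogen and progesterone receptors. They had been given ethanol vehicle or P4 for 1 h, and both treatments were carried through the same sonication and library steps. The PR and POLR3A groups under each treatment had 3 replicate libraries each, and each treatment had 1 pooled input, 14 libraries in all. Each antibody and treatment had 1 region list, so no value per replicate, no SD and no test across replicates was available, and 1 cell line was studied. The lists held 111515 PR and 47904 POLR3A regions under P4, against 38933 and 29161 under vehicle. They hold no read counts, so library depth is unknown, and it cannot be told apart from treatment in the length of a list.

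PR is a nuclear receptor that, once bound by progesterone, moves onto response elements in chromatin and recruits coactivators; in breast epithelium it acts largely through distal enhancers. RNA polymerase III makes tRNAs, 5S rRNA and other short RNAs, and at tRNA genes it is placed by TFIIIC and TFIIIB through internal elements called the A box and B box. It has also been mapped away from these genes, near promoters read by RNA polymerase II.

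Sequences are shown for 6 of the 266 promoter windows that held the PR summit of a site. They are concrete examples of where PR and POLR3A regions overlapped near gene starts. Each line gives the 250 bases before the RefSeq transcription start (GRCh38.p14), 5′ to 3′ on the gene's strand. In the first 3, capitals mark the 21 bases centred on the PR summit, and these were chosen because both summits fell in the printed bases and the site ranked highest in both lists. In the last 3, capitals mark a matched motif. FAR2-AS1 was the 1 window overlapped by a site that held a full progesterone response element. TMX4 held the shorter site AGAACA, read on the other strand as TGTTCT, under the PR summit. LOC124901081 held the B box letters GTTCGANNC.
ZNF81: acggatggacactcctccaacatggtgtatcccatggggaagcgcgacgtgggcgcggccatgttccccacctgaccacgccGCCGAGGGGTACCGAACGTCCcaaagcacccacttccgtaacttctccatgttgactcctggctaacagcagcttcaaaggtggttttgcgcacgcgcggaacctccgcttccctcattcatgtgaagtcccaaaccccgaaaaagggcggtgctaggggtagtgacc
MED20: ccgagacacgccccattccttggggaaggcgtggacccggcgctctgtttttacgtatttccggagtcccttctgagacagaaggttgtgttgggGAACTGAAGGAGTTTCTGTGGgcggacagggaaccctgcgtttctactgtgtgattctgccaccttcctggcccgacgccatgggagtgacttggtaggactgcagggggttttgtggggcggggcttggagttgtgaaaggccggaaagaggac
POLR3F: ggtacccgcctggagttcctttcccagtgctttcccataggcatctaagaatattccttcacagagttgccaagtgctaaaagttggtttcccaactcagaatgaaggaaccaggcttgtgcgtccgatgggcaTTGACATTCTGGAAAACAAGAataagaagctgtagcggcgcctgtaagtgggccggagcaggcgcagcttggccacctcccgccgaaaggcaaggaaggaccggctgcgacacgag
FAR2-AS1: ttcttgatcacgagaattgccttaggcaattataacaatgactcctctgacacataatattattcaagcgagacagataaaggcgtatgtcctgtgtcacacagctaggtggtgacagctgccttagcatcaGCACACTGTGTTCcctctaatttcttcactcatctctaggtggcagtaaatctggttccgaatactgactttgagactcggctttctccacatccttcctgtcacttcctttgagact
TMX4: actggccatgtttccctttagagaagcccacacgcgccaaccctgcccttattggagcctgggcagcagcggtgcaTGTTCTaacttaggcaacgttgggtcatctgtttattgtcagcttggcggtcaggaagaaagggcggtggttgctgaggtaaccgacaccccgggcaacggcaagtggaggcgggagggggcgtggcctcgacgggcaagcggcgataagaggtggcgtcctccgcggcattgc
LOC124901081: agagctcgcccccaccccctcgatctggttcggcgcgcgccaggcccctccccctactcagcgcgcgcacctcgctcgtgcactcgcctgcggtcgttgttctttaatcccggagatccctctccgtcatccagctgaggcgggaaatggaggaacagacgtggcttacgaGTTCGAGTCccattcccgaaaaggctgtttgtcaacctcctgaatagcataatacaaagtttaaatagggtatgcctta

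The ZNF81 stretch lies at chrX:47836652-47836901 on the + strand, in front of a zinc finger gene. Its site had a PR −log10 q of 42.2 and a POLR3A −log10 q of 7.87, with the PR summit 158 bp and the POLR3A summit 226 bp before the start. The MED20 stretch lies at chr6:41920944-41921193 on the − strand, in front of a Mediator subunit gene. There the values were 25.6 and 6.34, and the summits lay 145 and 204 bp before the start. The same site also overlapped the promoter window of BYSL on the other strand. The POLR3F stretch, chr20:18467140-18467389 on the + strand, lies in front of the gene of a subunit of RNA polymerase III itself. Its site had 12.8 and 4.89, with the POLR3A summit 28 bp before the start. That site also overlapped the promoter window of DZANK1 on the other strand, so it cannot be assigned to POLR3F alone. None of these 3 stretches held the full or the short PR motif, the AP-1, forkhead or B box letters. At FAR2-AS1, a long non-coding RNA gene (chr12:29317849-29318098, − strand), the response element filled positions 133 to 145 and the PR and POLR3A summits fell at positions 152 and 173. That site had a PR −log10 q of 20.6 and a POLR3A value of 4.13, and the nearest vehicle region lay 62475 bp away. At TMX4, a thioredoxin-related membrane protein gene (chr20:8019762-8020011, − strand), the summits fell at positions 82 and 81, on the last bases of the motif at 77 to 82. That site had a PR −log10 q of 5.57 and a POLR3A value of 3.59, and a vehicle POLR3A region lay 163 bp away. LOC124901081 (chr5:139293413-139293662, − strand) had its motif at 172 to 180, the PR summit at position 228 and the POLR3A summit 9 bp past the start. Its site had a PR −log10 q of 3.63 and a POLR3A value of 3.72, and a vehicle POLR3A region lay 143 bp away.

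The scores below are the authors' deposited values, used to describe and rank regions within a list. Regions gaining both sat mostly in the middle and lower parts of the PR P4 list, with a median percentile of 40.55 and quartiles of 22.08 and 57.45. In the POLR3A P4 list these regions were spread more evenly, with a median percentile of 49.15 and quartiles of 25.61 and 70.87. Their median PR −log10 q was 4.05, with quartiles of 2.88 and 5.92, and the median fold enrichment over the caller's background was 3.23. PR regions gained without POLR3A had nearly the same medians, 3.96 and 3.36, while all PR regions under P4 had 4.87 and 3.55. Sites with PR in both treatments and POLR3A under P4 only had a median of 19.0. On the POLR3A side, the median −log10 q was 3.21 and the median fold 3.29, against 3.22 and 3.28 over all POLR3A regions under P4. A PR −log10 q of at least 5 was reached by 3177 of the 9049 sites, 35.1% (95% Wilson interval 34.1 to 36.1), against 37.3% of PR gains without POLR3A and 49.5% of all PR regions under P4. A POLR3A value of at least 5 was reached by 1334, 14.7% (14.0 to 15.5), against 19.7% of all POLR3A regions under P4. These intervals cover counting error over regions only. Both values reached 5 at 632 sites, 6.98%, and both reached 10 at 47 sites. The 2 scores went together weakly, with a Spearman rho of 0.124 over the 9049 sites, a description across regions of the same lists.

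**Figure D1:**
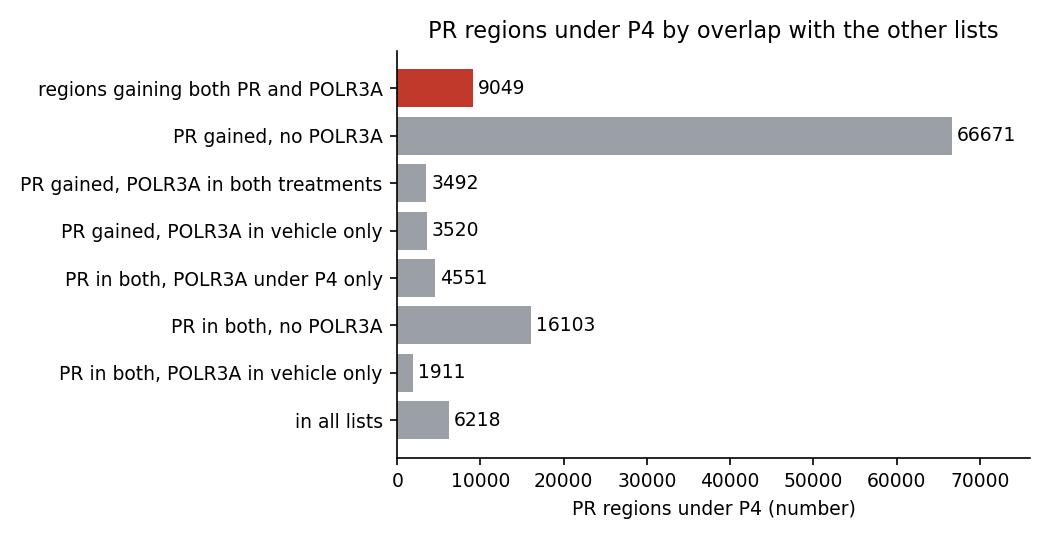
Number of PR regions under P4 in each of 8 classes, by which of the other lists they overlap. The red bar is the 9049 regions gaining both, and the longest grey bar is the 66671 PR regions gained without POLR3A.

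**Figure D2:**
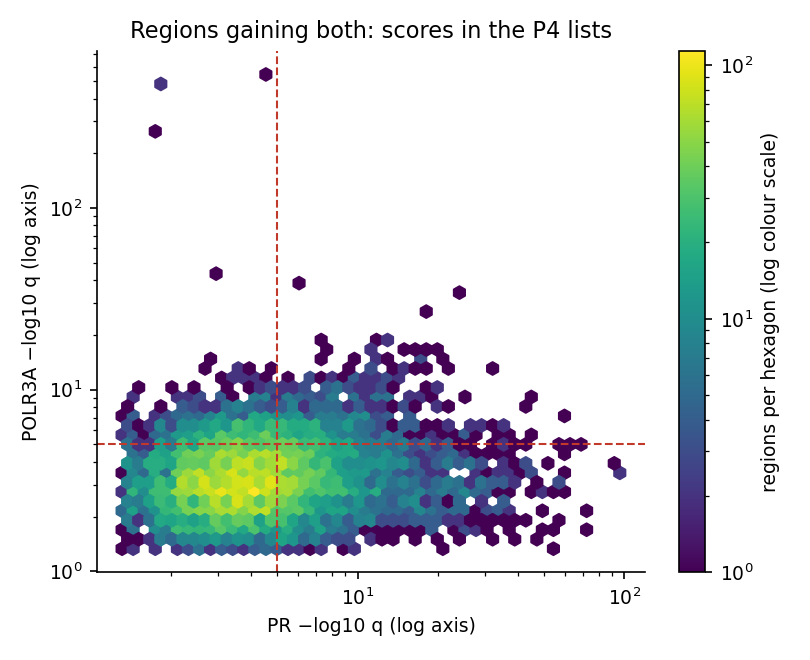
PR against POLR3A −log10 q of the 9049 regions gaining both, both on log axes, with colour for the number of regions per hexagon and dashed lines at 5. Most regions lie below 5 on both axes, 632 lie at or above 5 on both, and 4 stand at the top with POLR3A values from 272 to 543 and PR values under 5.

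Sites far from genes were a small part of the set and a large part of those with a −log10 q of at least 10 in both lists. In all, 552 sites, 6.10% (5.63 to 6.61), lay more than 500 kb from any end of a protein-coding gene, against 3.20% of PR gains without POLR3A, 5.22% of all PR regions and 21.8% of sites in all lists. These 552 had a higher −log10 q in both lists than the other 8497, with medians of 5.39 against 3.97 for PR and 4.87 against 3.17 for POLR3A. Their fold enrichment was not higher, with medians of 3.09 against 3.25 for PR and 3.21 against 3.29 for POLR3A. Their PR regions were narrower, 227.5 bp against 318 bp, and the summits lay 32 bp apart against 122 bp. Of the 632 sites with both scores of at least 5, 192 (30.4%; 26.9 to 34.1) lay this far out, and of the 47 with both of at least 10, 41 (87.2%; 74.8 to 94.0). Chromosome 11 had 125 such sites and chromosome 20 had 74. On chromosome 18 they were 71.2% of its 73 sites. Bins of 1 Mb at the centromeres of chromosomes 20 (42 sites) and 11 (40 and 39 sites) were among the fullest of the genome. Examples are chr1:123240903-123241110, with PR 23.8 and POLR3A 32.4 and summits 7 bp apart, and chr13:16568293-16568475, with 17.5 and 25.5 and summits 5 bp apart. As background, DNA at and around centromeres is rich in repeats, and the part of this position in the scores was not tested. The 6 sites with both scores of at least 10 that were within 500 kb of a coding gene had a median summit distance of 38.5 bp.

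The share of PR gains that also gained POLR3A depended on PR rank. Among PR regions gained with or without POLR3A, it was 9.70% in the lowest band of the PR list, percentiles 0 to 10. It was 14.9% (14.2 to 15.7) from percentile 40 to 50 and 7.57% (6.83 to 8.38) from 80 to 90. Above percentile 90 it was 41 of 479, 8.56%. The share also moved with width. It was 7.41% for regions narrower than 200 bp, 9.03% from 200 to 299 bp, 15.4% from 300 to 499 bp and 30.4% at 500 bp or more. The median region gaining both was 311 bp wide, against 249 bp without POLR3A. The part of width in the overlap was not tested.

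The rule asks the 2 regions to overlap, and with median widths of 311 bp for PR and 291 bp for POLR3A this alone keeps their summits near each other. The median summit distance was 114 bp, with quartiles of 45 and 235 bp, and 2481 sites, 27.4% (26.5 to 28.4), had them within 50 bp. In 69.6% the POLR3A summit lay inside the PR region, and the 2 regions shared a median of 197 bp. The median distance was 128 bp where PR was gained on POLR3A present in both treatments, 119 bp where PR was in both and POLR3A under P4 only, and 79 bp at sites in all lists. Summits more than 300 bp apart made up 16.3% (15.6 to 17.1) of the regions gaining both. In the other classes with a POLR3A region under P4, that share was 23.3% with PR gained on POLR3A of both treatments, 23.6% with PR in both and POLR3A under P4 only, and 23.4% at sites in all lists. The PR regions of those classes were wider, with medians of 385, 548 and 595 bp, and the part of width was not tested.

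**Figure D3:**
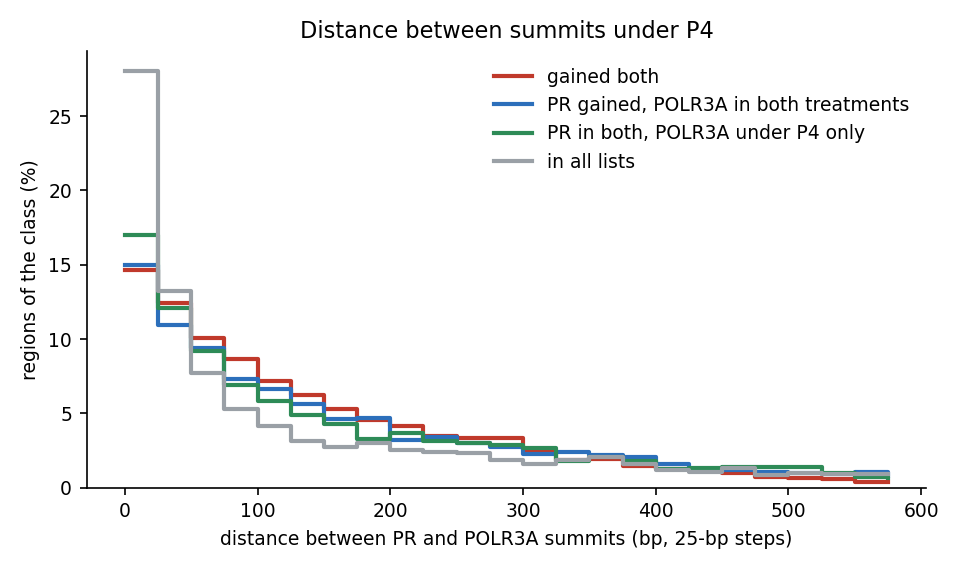
Share of regions by distance between the PR and POLR3A summits in 25-bp steps, for 4 classes of PR regions under P4. Sites in all lists stand highest at the shortest distance, and regions gaining both follow a curve close to those of the other 2 classes, with a median of 114 bp.

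Gained sites often lay beside sites already present under vehicle. The median gap to the nearest vehicle PR region was 3939 bp, against 10710 bp for PR gained without POLR3A. For PR gained on POLR3A of both treatments it was 2420 bp, and on POLR3A of vehicle only 4179 bp, so this closeness was not particular to the sites. The median gap to the nearest vehicle POLR3A region was 4691 bp, against 18020 bp for PR gained without POLR3A. With PR in both treatments, it was 4594 bp where POLR3A was under P4 only and 23640 bp without POLR3A. A vehicle region of either antibody lay within 1 kb of 3380 sites, 37.4% (36.4 to 38.4), against 16.7% (16.4 to 17.0) without POLR3A. More than 10 kb from any vehicle region were 1827 sites, 20.2%, against 41.4%. Sites gaining both were also crowded by other PR regions of the P4 list, with another one within 1 kb of 52.0% (51.0 to 53.1), against 28.8% without POLR3A and 34.3% for PR in both treatments without POLR3A. In the 5 other classes with POLR3A in either treatment, that share was higher still, from 54.3% to 64.5%. The POLR3A region under a site touched a vehicle POLR3A region in 336 cases, 3.71%, so POLR3A was not absent from the locus under vehicle there. In 8548 cases, 94.5%, it touched no vehicle region. Seen from the POLR3A list, 74.2% of its P4 regions touched no vehicle POLR3A region, and 8750 of these 35554 regions, 24.6%, overlapped a site gaining both.

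**Figure D4:**
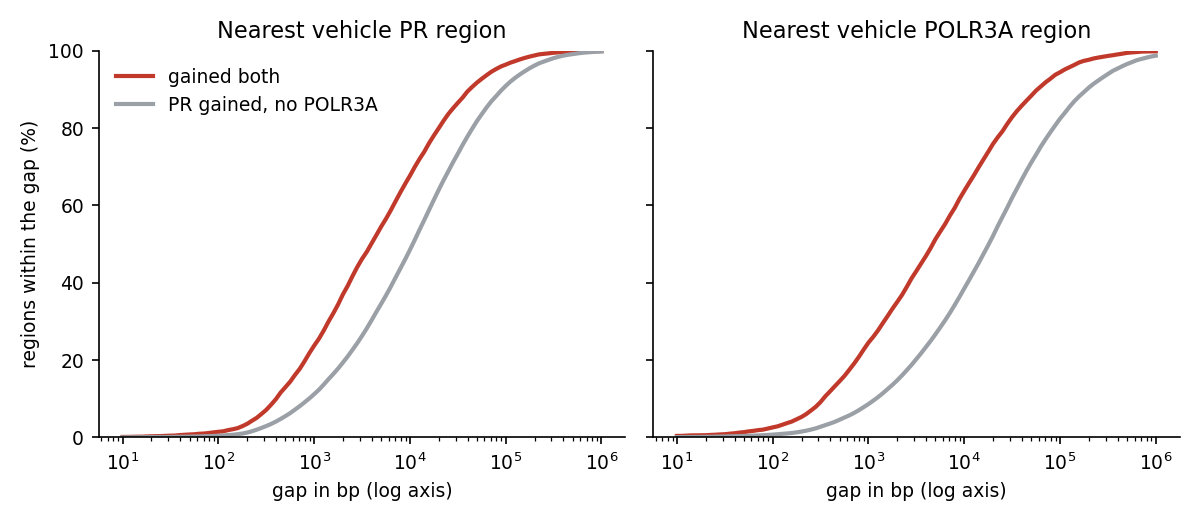
Cumulative share of regions within a given gap (log axis, bp) of the nearest vehicle PR region, left, and vehicle POLR3A region, right. Regions gaining both (red) lie to the left of PR regions gained without POLR3A (grey), with median gaps of 3939 and 4691 bp against 10710 and 18020 bp.

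At the edge of the rule, 46 sites had a vehicle region within 10 bp and 49 regions had been left out for a vehicle overlap of at most 10 bp. The nearest inside were a site in PIP5KL1 (chr9:127930279-127930533; PR −log10 q 5.17, POLR3A 5.52), 1 in AHNAK (chr11:62540211-62540408; 3.10 and 1.96) and 1 by RNF34 (chr12:121399635-121399933; 1.84 and 2.21). Each of these abutted a vehicle region without sharing a base. Just outside, sharing 1 bp, were a region in EEIG1 (chr9:127954081-127954424; 3.03 and 4.95), 1 near NUP214 (chr9:131237851-131238436; 3.55 and 2.07) and 1 in TFAP4 (chr16:4271049-4271293; 3.05 and 2.21). The scores on the 2 sides of the edge fell in the same range.

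The highest PR score among the sites was at CTNND1, which encodes p120-catenin of adherens junctions (chr11:57761092-57761982). Its PR −log10 q was 96.0 with a fold of 18.75, and its POLR3A −log10 q was 3.59. A site inside PRPH2, a photoreceptor tetraspanin gene (chr6:42711801-42712194), had 95.8 and 3.42, and the nearest vehicle region lay 66923 bp away. Next came a site over MIR365BHG (chr17:31572815-31573763) with 90.0 and 3.72. A site 13978 bp from CD34, a surface sialomucin gene (chr1:207925104-207925898), had 72.0 and 4.90, and 1 inside EHMT1, a histone H3 lysine methyltransferase gene (chr9:137697055-137697552), had 72.0 and 1.65. The rest of the top 10 by PR lay in CLDN14 (a tight junction claudin), NEBL (an actin-binding protein), PLEKHM1P1 and TBCD (a tubulin folding cofactor) and 355 bp from MTARC2, with PR values from 59.3 to 70.3 and POLR3A values from 2.21 to 4.95. All 10 had a POLR3A −log10 q under 5, the range that held most of the 9049 sites.

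The 10 sites that ranked highest in both lists at once were led by 1 over LINC02731, 29797 bp from JAM3 (chr11:134038669-134039274; PR 44.2, POLR3A 9.09), with summits 41 bp apart. The ZNF81 promoter came next. A site 46346 bp from PTPRJ, a receptor tyrosine phosphatase gene (chr11:47933784-47934212), had 57.01 and 6.89. A site inside TNFRSF21, the gene of death receptor DR6 (chr6:47242450-47242814), had 34.1 and 6.46, and the nearest vehicle region lay 66923 bp away. The others included sites 54601 bp from DLG1, by CBR3 and over CBR3-AS1, inside P2RY6 (a nucleotide receptor) and inside MED22 (a Mediator subunit). They also included sites far from coding genes on chromosomes 2 and 13. Their PR values ran from 27.7 to 36.7 and their POLR3A values from 5.97 to 13.1. At the CBR3 site the POLR3A region touched a vehicle POLR3A region, and at the other 9 it did not.

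No site lay at a tRNA gene. Of 429 nuclear tRNA genes with 100 bp on either side, 0 held a region gaining both (0%), while 351 (81.8%) held a POLR3A region and 112 (26.1%) a PR region under P4. In regions, 0 of 9049 allows a share of up to 0.0424% by the Wilson interval. PR regions gained where POLR3A was present in both treatments covered 55 tRNA genes, and regions in all lists covered 58. The count was 0 also for the 20 other RNA polymerase III genes of the fixed list, among them RN7SK, RMRP and the U6 genes, and for 29 rRNA genes. It was 1 of 149 snRNA genes and 7 of 1190 snoRNA genes. Any PR region under P4 was found at 22 of the 29 rRNA, 48 of the 149 snRNA and 60 of the 1190 snoRNA genes. The rule takes away any site with POLR3A under vehicle, so genes already held by POLR3A could hardly enter, and the count of 0 is read with that.

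Within 500 bp, 6 tRNA genes had a site nearby, and these included the highest POLR3A scores of all. The site by TRU-TCA1-1, a selenocysteine tRNA gene (chr19:45478601-45478687), overlapped a POLR3A region with a −log10 q of 543 and a fold of 78.0, yet its own PR −log10 q was 4.59. The sites by TRG-GCC2-6 on chromosome 17, TRQ-CTG6-1 and TRS-CGA3-1 on chromosome 6 followed, with POLR3A at 513, 462 and 272 and PR at 1.84, 1.84 and 1.69. In these 4, the POLR3A region touched its vehicle counterpart, which ended 9 to 130 bp short of the PR region, so they met the rule at the border of a tRNA site listed in both treatments. By TRV-AAC1-2 (chr5:181164154-181164226) the nearest vehicle POLR3A region lay 1847 bp away, with a POLR3A −log10 q of 7.09 and a PR value of 2.30. The POLR3A regions under these 5 sites did reach the tRNA genes themselves, 5 of 429 (1.17%), while the PR regions lay beside them. By TRG-GCC2-3 the values were 2.53 and 2.97. Among the other sites of the top 10 by POLR3A, 1 lay inside EIF4A2, a translation initiation helicase gene (chr3:186784217-186784462), with a POLR3A −log10 q of 37.6 and a PR value of 5.89, and its POLR3A region also touched a vehicle one. The last 5 lay over 500 kb from coding genes on chromosomes 1, 11, 13 and 16, with POLR3A values from 19.4 to 46.2 and PR values from 2.91 to 23.8. At the highest of these, chr11:52019579-52019909 with 46.2, the POLR3A region also touched a vehicle one, and at the rest it did not.

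Regions gaining both were nearer to gene starts than PR gains without POLR3A. Of the 9049 sites, 1756, 19.4% (18.6 to 20.2), lay within 1 kb of an end of a protein-coding gene, against 8.90% (8.69 to 9.12) without POLR3A and 12.7% of all PR regions under P4. The share was 39.3% (37.7 to 40.9) where PR was gained on POLR3A of both treatments and 16.6% (15.5 to 17.7) where only POLR3A was gained. Strand was known from the RefSeq promoters, which left out the 451 sites of chromosome 8. With it, 1380 of 8598 sites lay within 1 kb of a coding start, 16.1% (15.3 to 16.8), against 6.54% without POLR3A. In these 1380, the PR summit lay a median of 517 bp and the POLR3A summit 499 bp from the start. The POLR3A summit was the closer one in 685, 49.6%, and the PR and POLR3A summits were upstream in 50% and 48.8%. Where POLR3A was present in both treatments, the medians were 323 and 300 bp. Neither summit was thus placed on 1 side of the start. Most sites, 53.6% (52.6 to 54.7), lay over a protein-coding gene, close to 55.4% without POLR3A and 54.0% of all PR regions. The deposited coordinates were set against gene spans only, so exon, intron and UTR were not told apart.

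At promoters, 562 sites overlapped 712 of 34789 RefSeq windows of 300 bases, 489 coding genes among them. Motifs were searched on both strands and are descriptions of letters, not of binding. The full progesterone response element, a gapped palindrome searched with its core letters fixed and its gap free, was in 1 of the 712 windows, 0.14% (0.0248 to 0.791), against 0.391% of all windows, 0.831% of those under PR gained without POLR3A and 2.43% (1.48 to 3.97) of those under PR in both treatments without POLR3A. It was in 0 of 987 windows where PR was gained on POLR3A of both treatments. The interval for the sites includes the share of all windows. With lists of equal length, 962 sites remained and their share was 0.926%, above that of all windows. No interval was computed for this smaller set, and with so few windows holding the element no rise is read from it. The shorter AGAACA was in 10.7% (8.61 to 13.2), against 14.8% of all windows, 15.1% for PR gained without POLR3A, 9.12% for PR gained on POLR3A of both treatments and 20.1% for PR in both treatments without POLR3A. The shorter one needs a base outside the full element, so a window can hold the full element without it, as at FAR2-AS1. The B box GTTCGANNC was in 19 windows, 2.67% (1.72 to 4.13), against 0.834% of all windows. In the same order of classes, it was in 0.727%, 1.72% and 2.43%. Against all windows, AP-1 letters (TGANTCA) were in 4.78% against 7.69% and GATA letters (AGATAA) in 5.62% against 10.4%. Forkhead letters (TGTTTAC) were in 4.21% against 3.42%, the grainyhead letters AACNNGTT in 3.79% against 3.53% and the TFAP2 letters GCCNNNGGC in 24.9% against 23.2%. The oestrogen response element was in 0 of 712 windows against 0.0575% of all. The windows under the sites had a median GC content of 62%, against 58.7% of all windows, and its part in these shares was not tested.

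Among miRNA genes, 10 of 1558 hairpins were overlapped by a site. Counted over the 1911 RefSeq miRNA genes, 15 (0.785%) overlapped a site. Any PR region under P4 overlapped 115 of the 1911, and a PR gain without POLR3A overlapped 34. The highest PR value among them, 7.08 with a POLR3A value of 3.17, was at the pair MIR423 and MIR3184 (chr17:30117079-30117172 and chr17:30117086-30117160), which lie on opposite strands of the same DNA, with the PR summit inside both hairpins. Their mature sequences are shown because they come from the stretch under the summit, with the seed, bases 2 to 8, in capitals. The 5p products of the 2 genes share the seed GAGGGGC.
hsa-miR-423-5p: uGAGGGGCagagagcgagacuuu
hsa-miR-3184-5p: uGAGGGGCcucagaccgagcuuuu
hsa-miR-423-3p: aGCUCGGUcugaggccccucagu
hsa-miR-3184-3p: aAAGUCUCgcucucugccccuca

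The PR summit lay inside 1 further hairpin, MIR3137 (PR 4.72, POLR3A 2.21). The site at MIR132, a neuronal and immune miRNA gene, had 1.38 and 2.21, with the PR summit 80 bp from the hairpin. No level of any miRNA was measured here.

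Sites were spread over many genes with a few dense loci. Of 19821 protein-coding genes, 3093 held at least 1 site, 15.6%, of which 2129 held 1 and 116 held 5 or more. GSE1, a gene of a histone deacetylase-associated protein, held 44, which was 17.6% of the 250 PR regions there under P4, beside 8.11% over the whole list. KCNMA1, the BK potassium channel gene, held 30 of 165. ANKRD11, a chromatin regulator, and GRIK4, a kainate receptor subunit, held 21 each. PRLR, the prolactin receptor gene and a textbook PR target of the mammary gland, held 18 of 73, with PR values up to 31.3 and POLR3A values up to 7.11. ANXA8 held 16, ZMIZ1 (a coactivator of the PIAS family) 15, and GRHL2 (an epithelial transcription factor) and WWC1 (a Hippo pathway scaffold) 13 each. USP10, a deubiquitinase gene, held 12 of 34 PR regions in 79.9 kb, 15.01 per 100 kb. These genes were picked for their counts, so their shares are a description.

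The run with the most sites, chained at 10 kb, was the 12 at USP10 in 52.9 kb (chr16:84728475-84781412). It was followed by 10 over AHNAK, a large scaffold protein gene, in 38.1 kb (chr11:62513120-62551224) and 10 across GSE1 and GINS2 in 34.7 kb. Of 9049 sites, 5350 had no other within 10 kb and 373 sat in 64 runs of 5 or more. Another site of the same kind lay within 10 kb of 40.9% (39.9 to 41.9). The value for PR gained without POLR3A, 67.5%, comes from a class of 66671 regions and cannot be read against it.

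The fixed gene lists were read with 50 kb on each side of a gene, over which 41.7% of all protein-coding genes had at least 1 site and the median gene had 0. Gene length was not taken into account. Of 30 PR targets, 16 (53.3%) had a site, with a median of 1. PRLR had 20, EHF (an epithelial ETS factor) 6, FKBP5 (a co-chaperone of steroid receptors) 5 and GREB1 (a steroid-responsive growth gene) 5. STAT5A, TNFSF11 (RANKL), WNT4 and SGK1 had 0. PGR, the gene of PR itself, had 1 of 13 PR regions. Of 12 luminal breast transcription factors, 10 (83.3%) had a site, median 1: SPDEF had 7, GATA3 5 and ELF3 4, and ESR1 and FOXA1 1 each. Of 10 AP-1 family genes, 8 had a site, median 2, with 8 by FOS and 6 by MAFK and 0 by JUN and FOSL2. Of 8 growth factor receptor genes, 4 had a site, with 9 by ERBB3 and 4 by ERBB2. Of 14 steroid receptor coregulators, 5 (35.7%) had a site, with 8 by KMT2D, and the median was 0. FOSL1 and EGFR stand in 2 lists each.

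Genes of the RNA polymerase III machinery were near the share of all genes, with 11 of 28 (39.3%) holding a site within 50 kb and a median of 0. BRF2, the TFIIIB factor of type 3 promoters, and CRCP, a polymerase subunit, had 6 each. POLR3A itself and GTF3C5, a TFIIIC subunit, had 4 each, with PR values up to 10.0 and 9.03. MAF1, the repressor of the polymerase, had 1 of 35 PR regions. At POLR3F the 1 site was at the promoter shown above, and it also overlapped that of DZANK1.

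The share of PR regions under P4 that gained both differed between chromosomes. It ran from 3.08% on chromosome 2 (144 sites) to 11.3% on chromosome 11 (999) and 11.6% on chromosome 20 (674). The number of POLR3A regions per PR region under P4 moved with it, from 0.224 on chromosome 2 to 0.537 on chromosome 11, and over the 23 chromosomes the 2 had a Spearman rho of 0.948, a description of values that share the POLR3A list. By 1-Mb bins, 91 bins with 20 or more sites held 2633 sites, 29.1%. The fullest, around GSE1 on chromosome 16, held 68.

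**Figure D5:**
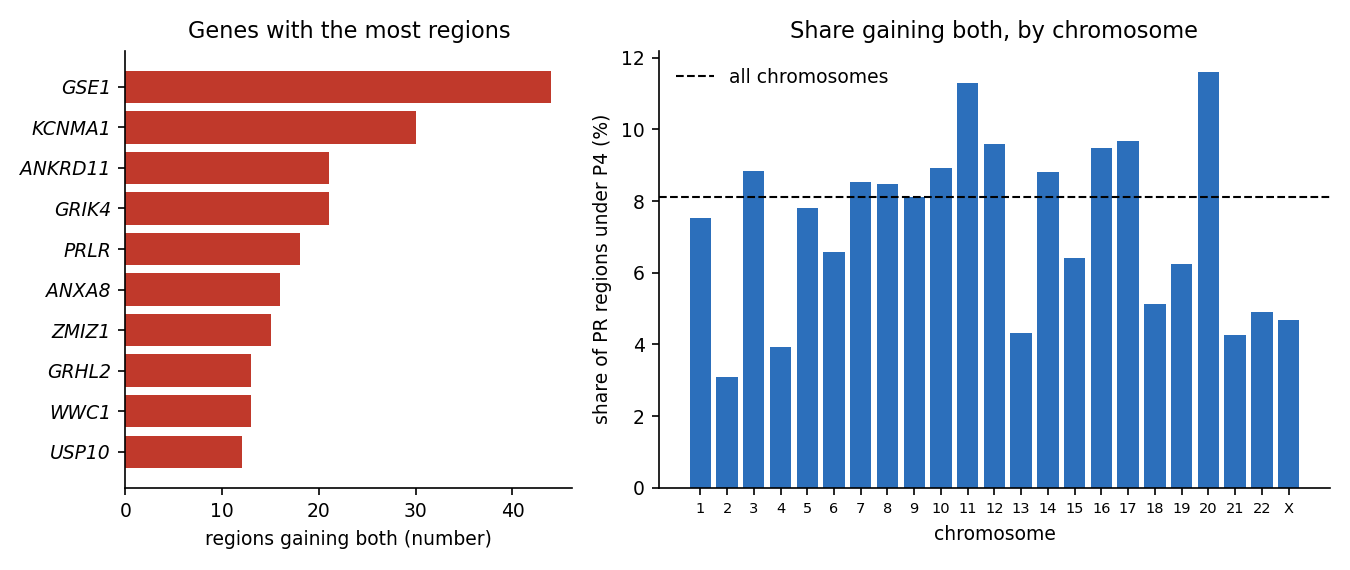
Left, number of regions gaining both inside the 10 protein-coding genes with the most. Right, share of PR regions under P4 that gained both on each chromosome, with a dashed line at 8.11% for all chromosomes together; chromosomes 20 and 11 stand highest and chromosome 2 lowest.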

How the data were processed

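Regions came from 4 deposited lists in narrowPeak layout, 1 for each antibody and treatment. The submitters' processing notes name cutadapt, Bowtie2 and MACS2 with the build hg38, without role, order or version; thresholds, control and pooling are not given in the sources used here. The fold enrichment is a ratio made by the authors, and the −log10 q is likewise the authors' deposited value. The deposited −log10 p and the score column, which follows the −log10 q, were not used. Library depth is unknown.

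Overlaps of at least 1 bp were counted with Python 3.11.15, pandas 2.3.3, NumPy 2.4.6 and SciPy 1.17.1, checked on simulated regions, and the sites equalled those from bedtools 2.31.1. For a site over several POLR3A regions, the one with the highest −log10 q was used. Gene spans were those of RefSeq GRCh38.p14: 58419 of 59792 genes, with alternate sequences dropped, including 19821 protein-coding and 429 tRNA genes. Promoter and miRNA sequences are RefSeq's; promoters cover 250 bases before to 50 after the start. A planned motif search at PR summits was taken over promoter windows, since a genome sequence was not used here. Shares carry 95% Wilson intervals. No test was run, because each group has 1 list and no value per replicate.

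Named sites are the 10 highest by PR −log10 q, by POLR3A −log10 q and by the smaller of their percentiles in the 2 P4 lists, and those at RNA polymerase III genes. Named genes are the 10 with the most sites and up to 4 per fixed list; others in those lists, the miRNA genes and the printed promoters and sequences were chosen after their values were seen. Some genes of these lists are not reported here by name. The members and gene lists were chosen with earlier results of these data known. Alternatives were stricter q, lists of equal length, 50% reciprocal overlap, other windows and a 1-kb margin to vehicle regions. The alternatives without sites far from coding genes and with POLR3A regions free of vehicle overlap were added after seeing the data.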

Additional observations from a re-analysis of the deposited data

Results flagged for a closer look

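Sites outside chromosomes 1 to 22 and X also met the rule. On sequences not placed on a chromosome or at a position, 75 of 946 PR regions under P4 gained both, with a median PR −log10 q of 4.59. On chromosome Y, 4 of 72 PR regions did, with a median of 5.34. None of these entered the values above.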

How the results depend on the processing

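Of 85 values of 9 results recomputed under alternatives, 27 stayed close to the reported value and 58 moved. Whether a comparison with another class changed direction was not scored. A count was close within 1.5 times, and a median or share within the 95% interval of its reported value. The number of sites, 9049, was 1350 with a −log10 q of at least 5 in all lists, 171 with at least 10, 632 with at least 5 in the P4 lists, and 962 with lists of equal length. It was 4888 with a reciprocal overlap of 50% between the P4 lists and 5670 with no vehicle region within 1 kb. It was 6644 with a reciprocal overlap of 50% everywhere, 8548 with the POLR3A region free of vehicle overlap and 8497 without sites over 500 kb from coding genes.

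In that order (q of 5 in all lists, of 10 in all lists, of 5 in the P4 lists, equal length), the median PR fold was 3.99, 4.31, 3.89 and 4.71, and 3.30 with 50% overlap everywhere. The median POLR3A fold was 4.07, 4.38, 4.02 and 3.59, then 3.30 and 3.35 with 50% overlap between the P4 lists and everywhere, and 3.27 with the 1-kb margin. The median summit distance was 68.5, 23, 47 and 81 bp, then 69, 76 and 107 bp, 108 bp with the POLR3A region free of vehicle and 122 bp without the far sites.

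In the same order of the 4 settings, the share within 1 kb of a coding gene end was 28.7%, 17.0%, 18.2% and 20.6%, then 17.2%, 22.9% and 15.04%, 20.7% without far sites and 38.5% at 5 kb. The share over a coding gene was 46.1%, 20.5%, 38.5% and 49.7%, then 50.3% and 51.9%, and 57.1% without far sites. The share with another site within 10 kb was 16.7%, 15.2%, 12.3% and 7.90%, then 25.6%, 33.8% and 26.8%, 38.8% with the POLR3A region free of vehicle, and 71.6% at 50 kb. The promoter share with the response element was 0 at both q thresholds over all lists and over the P4 lists, and 0.926% at equal length. Of tRNA genes, 8 were overlapped with 50% overlap everywhere, which lets partly overlapped vehicle regions in, and 6 with 500 bp on either side; the count was 0 in the other settings. Apart from these constructions, the cause was not tested.

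No paired analysis was possible because each list stands for all 3 replicates of its group; leaving out a replicate was not possible either. Depth is unknown.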
